A study of Homo sapiens with 12 samples.

Results

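The regions described here are those at which STAT5B was found on chromatin in SUPT-1 cells that had not been given prednisolone, in a line overexpressing the N642H mutant of STAT5B (N642H line) and in a line overexpressing wild-type STAT5B (WT line). SUPT-1 is a widely used human cell line of T-cell acute lymphoblastic leukaemia, and in both lines the introduced STAT5B was induced with doxycycline. The series held 12 samples, of which 8 were chromatin immunoprecipitation and sequencing (ChIP-seq) libraries and 4 were input libraries. Its other libraries were immunoprecipitated for NR3C1, the glucocorticoid receptor, or came from cells given prednisolone at 250 µg per ml for 16 hours. The regions were the peaks of the untreated STAT5B library of each line on chromosomes 1 to 22 and X, 4541 in the N642H line and 2267 in the WT line. Together they made 6808 of the 11904 peaks on those chromosomes in the 8 lists. A region was shared when it overlapped a region of the other line by at least 1 bp, and was otherwise N642H-only or WT-only. The labels do not say how much of either protein the cells made, how many clones a line held or how much of the cells' own STAT5B was present, and the antibody's target was labelled STAT5B in both lines. Each line had 1 library, so no difference between lines had a replicate check, and values of the 2 lists set side by side are descriptions of those lists, not measured changes.

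STAT5B is a transcription factor of the JAK-STAT pathway. Cytokine receptors such as those for interleukin 7 and interleukin 2 activate JAK kinases, which phosphorylate STAT5B, and the phosphorylated protein pairs into dimers that bind DNA, classically at TTCNNNGAA. N642H is a recurrent mutation of T-cell leukaemias and lymphomas that lies in the SH2 domain and keeps the protein active for longer. Well-known STAT5 targets include CISH and the SOCS genes, which restrain cytokine signalling, the PIM kinases, BCL6, and the survival genes BCL2L1, which encodes BCL-XL, and MCL1. The study was titled as one of steroid resistance in which BCL2 and BCL-XL are activated.

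Promoter windows of 5 genes are shown first because they show both kinds of promoter that carried strong regions, those with the STAT dimer site and those without it. Each window runs from 250 bases before to 50 bases after a RefSeq gene start (GRCh38.p14), 5′ to 3′ on the gene's strand. Capitals mark TTCNNNGAA, or, in the AURKAIP1 window, CCGGAAGT, the core of an ETS-family site. CISH, at chr3:50611725-50612024 on the minus strand, held an N642H-only summit at base 121 of its window, next to the site that starts at base 122. BCL6, at chr3:187745419-187745718 on the minus strand, held a shared region whose N642H summit was at base 272. SLFN12L, at chr17:35537629-35537928 on the minus strand, held an N642H-only summit at base 145, between its 2 sites. AURKAIP1, at chr1:1375158-1375457 on the minus strand, held a shared summit at base 84. ZNF770, at chr15:34988238-34988537 on the minus strand, held a WT-only summit at base 166. SLFN12L and AURKAIP1 were chosen after their values were seen.
CISH: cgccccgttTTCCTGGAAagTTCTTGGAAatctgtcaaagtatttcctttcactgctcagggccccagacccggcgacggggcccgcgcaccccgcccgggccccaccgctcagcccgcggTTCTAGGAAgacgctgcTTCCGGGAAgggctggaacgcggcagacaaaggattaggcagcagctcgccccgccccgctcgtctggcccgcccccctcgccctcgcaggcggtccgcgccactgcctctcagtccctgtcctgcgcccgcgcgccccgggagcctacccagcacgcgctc
BCL6: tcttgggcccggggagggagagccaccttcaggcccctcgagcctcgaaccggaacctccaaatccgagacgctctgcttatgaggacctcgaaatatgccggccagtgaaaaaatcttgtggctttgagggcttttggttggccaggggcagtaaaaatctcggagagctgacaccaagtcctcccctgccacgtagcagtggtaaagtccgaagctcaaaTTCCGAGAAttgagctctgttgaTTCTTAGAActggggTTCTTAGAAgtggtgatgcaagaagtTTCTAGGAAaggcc
SLFN12L: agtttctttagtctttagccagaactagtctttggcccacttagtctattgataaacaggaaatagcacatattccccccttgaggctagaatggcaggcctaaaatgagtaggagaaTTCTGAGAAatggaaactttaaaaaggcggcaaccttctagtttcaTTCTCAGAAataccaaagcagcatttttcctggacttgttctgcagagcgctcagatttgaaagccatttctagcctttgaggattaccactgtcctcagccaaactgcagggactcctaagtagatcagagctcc
AURKAIP1: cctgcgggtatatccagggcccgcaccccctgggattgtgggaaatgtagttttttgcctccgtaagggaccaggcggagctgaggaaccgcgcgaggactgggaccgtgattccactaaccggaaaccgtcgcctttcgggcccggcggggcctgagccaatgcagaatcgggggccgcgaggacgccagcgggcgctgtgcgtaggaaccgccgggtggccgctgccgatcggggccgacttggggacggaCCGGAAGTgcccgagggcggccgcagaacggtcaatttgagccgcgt
ZNF770: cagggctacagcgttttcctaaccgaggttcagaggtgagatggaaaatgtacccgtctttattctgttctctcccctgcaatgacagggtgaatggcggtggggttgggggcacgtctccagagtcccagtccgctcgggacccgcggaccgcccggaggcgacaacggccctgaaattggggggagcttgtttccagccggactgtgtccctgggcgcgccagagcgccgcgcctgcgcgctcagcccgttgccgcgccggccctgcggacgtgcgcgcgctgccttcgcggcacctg
CISH and BCL6 each held 4 matches to TTCNNNGAA, and SLFN12L held 2. AURKAIP1 and ZNF770 held none, with a region of 16.3-fold enrichment in the N642H line at AURKAIP1 and of 10.7-fold in the WT line at ZNF770. Of 22132 promoter windows of protein-coding genes in the table, 6.79% held at least 1 match and 0.334% held 2 or more.

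The N642H list was longer, and most of it had no counterpart in the WT list. In the N642H line 1352 of 4541 regions (29.8%, 95% interval 28.5 to 31.1) overlapped a WT-line region, and 3189 (70.2%) did not. In the WT line 1392 of 2267 regions (61.4%, 59.4 to 63.4) overlapped an N642H-line region, and 875 (38.6%) did not. Intervals of shares are exact Clopper-Pearson intervals, which reflect counting error alone. The 2 counts of shared regions differ because 45 N642H regions were overlapped by more than 1 WT region. With the N642H list cut to its 2267 regions of highest −log10 q, the length of the WT list, the shared shares were 42.2% in the N642H list and 43.8% in the WT list. Summits of a shared pair were close, with a median gap of 51 bp, and 1033 of 1352 pairs (76.4%) had them within 100 bp. Line-specific regions were mostly distant from the other line's regions: 204 N642H-only regions (6.40%) had a WT region within 1 kb of their edge, and 181 WT-only regions (20.7%) had an N642H region that near.

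The strength of a region is given by values deposited by the authors for each peak, namely the fold enrichment over local background and the −log10 q, and by the pileup, the number of ChIP tags stacked at the summit, which was solved from them. N642H-only regions had a median fold of 5.99, a median −log10 q of 6.16 and a median pileup of 15 tags. Shared regions had a median fold of 6.99, a −log10 q of 9.06 and 19 tags in the N642H list, and 6.59, 5.80 and 13 tags in the WT list. WT-only regions had a median fold of 6.10, a −log10 q of 4.75 and 11 tags. In both lists the shared regions were thus the stronger ones. The highest fold was 27.3 in the N642H-only class and 10.8 in the WT-only class, and the highest −log10 q was 67.3 in the N642H-only class and 14.6 in the WT-only class. The highest pileup was 63 tags in the N642H-only class and 104 tags in the WT-only class, that one at the high-background region near IL9R described further on. Region width moved with the lists, with a median of 235 bp in the N642H list and 130 bp in the WT list, and a narrowest region of 156 bp in the N642H list and 77 bp in the WT list. The lowest local background was 0.977 tags in the N642H list and 0.640 tags in the WT list. Divided by the narrowest width, taken as the fragment length, these give about 6.26 tags per kb in the N642H line and 8.31 in the WT line. The commonest background gives 11.8 in the N642H line and 12.3 in the WT line, so these rough estimates leave the libraries' relative depth uncertain, and the part of depth and fragment length in the longer N642H list was not tested.

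**Figure D1:**
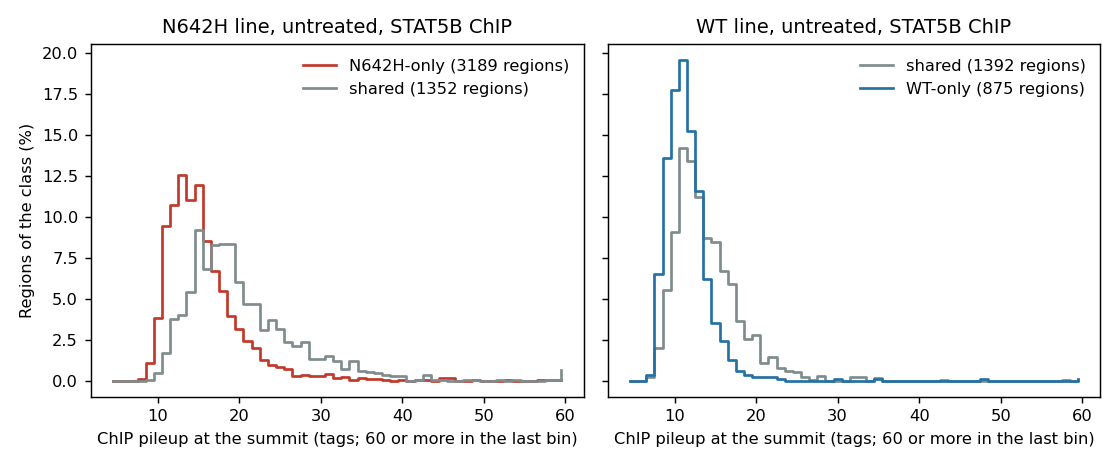
Share of regions in each class (%, vertical axis) by ChIP pileup at the summit in tags (horizontal axis), for the N642H list (left, 3189 N642H-only and 1352 shared regions) and the WT list (right, 1392 shared and 875 WT-only regions). The shared curves lie to the right of the line-specific ones, with medians of 19 against 15 tags in the N642H list and 13 against 11 tags in the WT list.

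The share of regions found in the other line rose with strength in both lists, but not to the same level. When each list was split into 5 groups of equal size by pileup, the shared share in the N642H list was 9.35%, 15.4%, 24.9%, 41.5% and 57.7% from the weakest to the strongest quintile. In the WT list it was 39.2%, 52.5%, 58.1%, 69.5% and 87.7%. The strongest end of the WT list was almost entirely shared: all of its top 50 regions by −log10 q and 97 of its top 100 overlapped an N642H region. At the same end of the N642H list, 28 of the top 50 and 64 of the top 100 overlapped a WT region. The strongest WT regions were thus nearly all in the N642H list, whereas many of the strongest N642H regions had no counterpart in the shorter WT list. WT regions were set against 4541 regions and N642H regions against 2267. At equal list lengths the shared shares of whole lists were 42.2% in the N642H list and 43.8% in the WT list. Shares by strength were not computed at equal lengths, so the part of list length in this contrast was not tested.

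**Figure D2:**
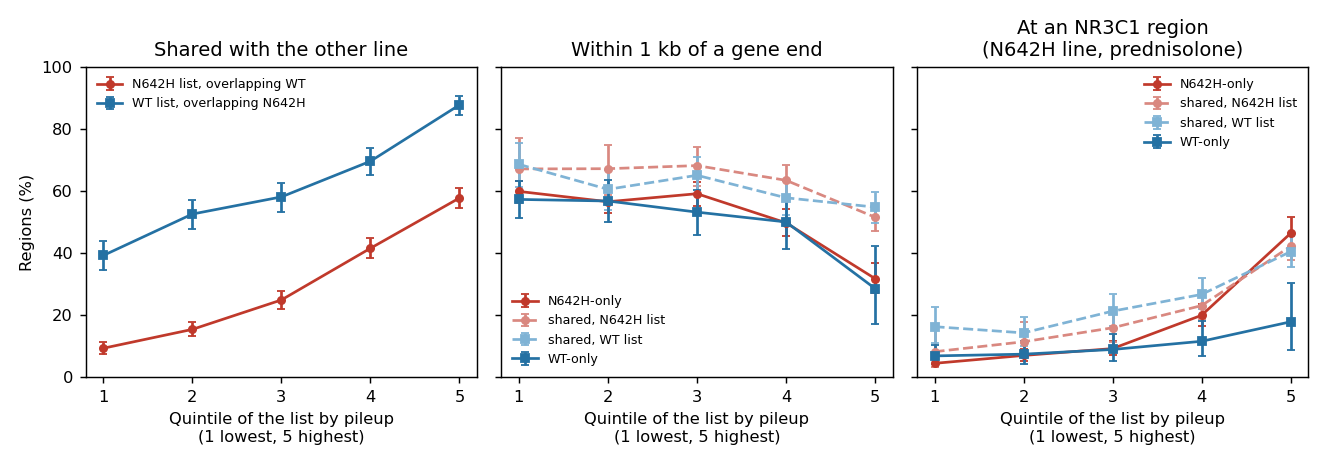
Share of regions (%, vertical axes) by quintile of the list by pileup (horizontal axes, 1 lowest, 5 highest): regions shared with the other line (left), regions within 1 kb of a gene end (middle) and regions at an NR3C1 region of prednisolone-treated N642H cells (right). Points are shares and bars are exact 95% intervals for counting error; sharing climbs to 57.7% in the N642H list and 87.7% in the WT list, while the gene-end share of N642H-only regions falls to 31.8% in the strongest quintile.

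Among the 1352 shared pairs the 2 lines gave similar middle values and different extremes. The median fold was 6.99 in the N642H line and 6.65 in the WT line, and the fold was higher in the N642H line in 747 pairs (55.3%). Across pairs the log2 folds had a Pearson r of 0.24 and a Spearman rho of 0.19, and the log2 pileups an r of 0.58. These are descriptions over regions of 2 libraries, which share local background and sequence composition. When the pairs were split into quintiles by the N642H −log10 q, median N642H folds were 4.80, 6.00, 6.99, 8.23 and 10.6, and the matching WT folds were 6.21, 6.30, 6.46, 6.91 and 7.28. When the pairs were split by the WT −log10 q instead, median N642H folds were 6.53, 6.66, 6.66, 7.34 and 8.0, and WT folds were 4.83, 6.00, 6.67, 7.53 and 9.32. In each split the line used for sorting spans the wider range by construction, and the other line's values rose more slowly.

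**Figure D3:**
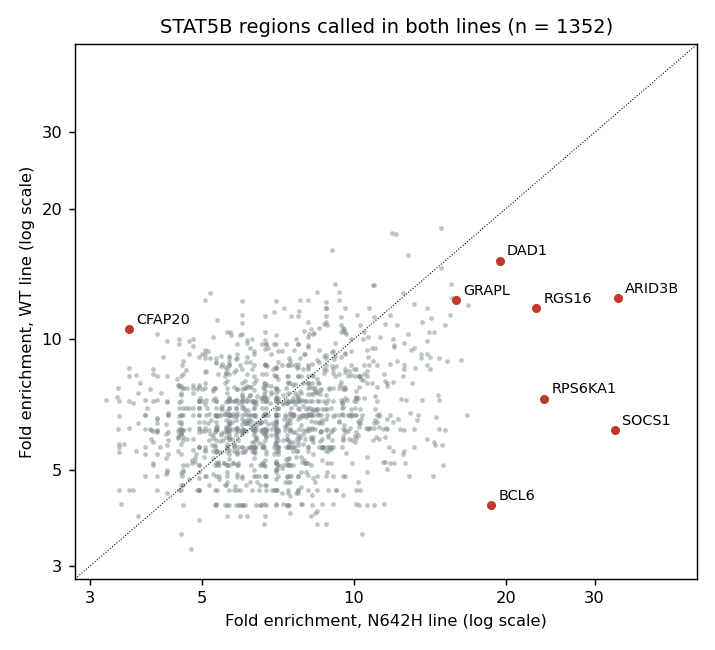
Fold enrichment in the N642H line (horizontal axis, log scale) against the WT line (vertical axis, log scale) for the 1352 shared STAT5B regions, each 1 grey point, with named regions in red and equal values on the dotted line. SOCS1, BCL6 and RPS6KA1 lie far right of the line, with 32.9, 18.7 and 23.8 in the N642H line against 6.16, 4.14 and 7.28 in the WT line, whereas CFAP20 lies above it.

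Between 53.3% and 60.2% of the regions of each class lay at a gene end, meaning that the summit was at most 1 kb from where a protein-coding gene begins or ends. This held for 1716 of 3189 N642H-only regions (53.8%, 52.1 to 55.5), 814 of 1352 shared regions in the N642H list (60.2%, 57.5 to 62.8), and 466 of 875 WT-only regions (53.3%, 49.9 to 56.6). Where the strand was known, nearly all were gene starts: 1392 of 3189 N642H-only (43.7%), 676 of 1352 shared and 384 of 875 WT-only regions (43.9%) were at a start, and 1.82%, 1.26% and 1.83% at the far end. Of the rest, 24.7% of N642H-only, 19.2% of shared and 25.1% of WT-only regions lay inside a gene, and 384, 156 and 105 regions, in that order, were over 20 kb from any. N642H-only and WT-only regions were close in these shares, within their counting intervals, but this depended on the list lengths. With the N642H list cut to the length of the WT list, 47.8% of N642H-only regions (45.1 to 50.5), 58.2% of shared regions and 56.8% of WT-only regions (54.0 to 59.5) were at a gene end.

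Location changed with strength, most of all among the line-specific regions. From the weakest to the strongest quintile of the N642H list the share at gene ends was 59.8%, 56.5%, 59.1%, 49.7% and 31.8% for N642H-only regions, and 67.1%, 67.1%, 68.1%, 63.4% and 51.5% for shared ones. WT-only regions had 57.2%, 56.7%, 53.2%, 50% and 28.6%, where the last 2 shares are 69 of 138 and 16 of 56 regions. The strongest line-specific regions were thus mostly away from gene ends in both lists. Of the 10 strongest regions of each class, 1 N642H-only, 1 shared and 5 WT-only regions were within 1 kb of a gene end.

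Summits at gene starts sat just upstream of the start. Positions were taken for regions within 1 kb of a protein-coding start of the promoter table, where a negative position is upstream. The median was -52 bp for N642H-only regions, -68 bp for shared regions of the N642H list and -37 bp for WT-only regions. The share upstream was 61.7% of N642H-only, 75.4% of shared and 59.9% of WT-only regions. Shared regions were also the most tightly placed, with 75.4% within 200 bp of the start, against 66.8% of N642H-only and 63.5% of WT-only regions.

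**Figure D4:**
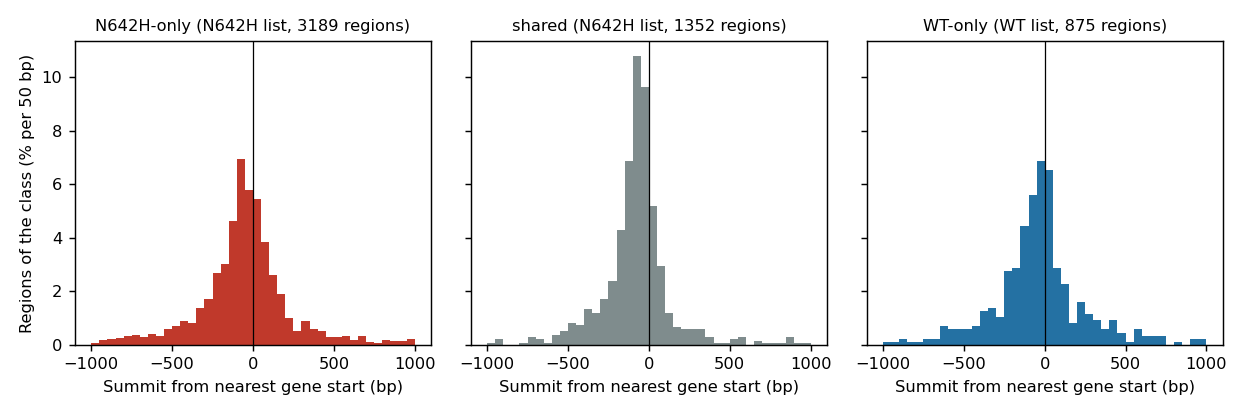
Share of all regions of a class (% per 50 bp, vertical axes) by distance of the summit from the nearest gene start in bp (horizontal axes, negative is upstream), for N642H-only (left), shared (middle, N642H list) and WT-only regions (right). All 3 peak just upstream of the start, and the shared class has the tallest and narrowest peak, with 75.4% of its regions near a start within 200 bp of it.

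Promoter windows were searched on both strands for TTCNNNGAA, its narrower form TTCCNGGAA, the ETS core CCGGAAGT and the TATA box TATAAA. The CRE TGACGTCA, the SP/KLF box GGGCGG, the E-box CACGTG and the NF-Y box CCAAT were searched as well. Of windows holding a summit, TTCNNNGAA was in 85 of 1109 (7.67%, 6.17 to 9.39) for N642H-only regions, 53 of 659 (8.04%, 6.08 to 10.4) for shared regions and 25 of 305 (8.20%, 5.38 to 11.9) for WT-only regions. These shares stand beside 6.79% of all 22132 windows and are near it, so most promoter regions of every class lay in windows without these letters. The narrower TTCCNGGAA was in 2.4% of N642H-only windows (1.61 to 3.52), 1.21% of shared and 0.984% of WT-only ones, against 1.09% of all windows. The strongest quintile of the N642H list was here taken by −log10 q, not by pileup. Its N642H-only windows had TTCNNNGAA in 18 of 122 (14.8%, 8.99 to 22.3). They had TTCCNGGAA in 9 of 122 (7.38%, 3.43 to 13.5), against 1.09% of all windows. Shared windows of that quintile had TTCNNNGAA in 9.65% and TTCCNGGAA in 1.54%. CCGGAAGT was in 14.8% of N642H-only, 19.3% of shared and 11.8% of WT-only windows, against 5.35% of all windows. TATAAA was in 3.70%, 3.95% and 6.23% of them, against 9.46% of all windows. In the same order, TGACGTCA was in 4.96%, 3.95% and 6.23%, against 2.26%, and GGGCGG in 71.5%, 66.3% and 72.8%, against 56.3%. CACGTG was in 11.9%, 9.71% and 11.15%, against 8.34%, and CCAAT in 34.45%, 28.53% and 33.44%, against 34.64%. A share above that of all windows was thus not particular to CCGGAAGT. The median share of G and C letters was 65.7% in N642H-only, 65.0% in shared and 66.3% in WT-only windows, against 62.3% in all windows. Windows of neighbouring genes overlap and 1 summit can lie in several, and a match is a description of the letters, not a binding site.

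Regions near negative regulators of cytokine signalling are given first, and the counts over that whole list stand further on beside those over all genes. CISH, whose protein blocks STAT5 recruitment to receptors, had 3 regions within 50 kb in the N642H list and 0 in the WT list. The strongest, at chr3:50611793-50612197 over the promoter shown above, had a fold of 12.7 and a −log10 q of 27.2. Its summit also lay in the promoter window of MAPKAPK3, a gene on the other strand, at base 278 of that window. SOCS3, an inhibitor of JAK kinases, had an N642H-only region of 17.7-fold inside the gene, 825 bp from its start, and a weaker one of 3.64-fold. The WT list held a WT-only region of 4.95-fold 17739 bp upstream of SOCS3, which lay 15 bp from the end of another gene. SOCS2 had 1 N642H-only region of 9.61-fold and 0 WT regions.

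At SOCS1, another inhibitor of JAK kinases, both lists held a region past the far end of the gene, 21126 bp from it in the N642H list, at chr16:11233035-11233731 in the N642H list. It was the second strongest of all N642H-line regions with 32.9-fold and 79 tags. In the WT list the matching region had 6.16-fold and 11 tags and ranked 1310 of 2267. The region is therefore shared by the rule while its place in the 2 lists differed widely. The line-specific regions near SOCS1, 6.50-fold in the N642H list and 6.43-fold in the WT list, lay 41551 bp and 42911 bp upstream, on the other side.

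The PIM kinases are serine/threonine kinases that promote survival and growth, and PIM1 was the gene nearest to the N642H-only region of highest −log10 q. That region, at chr6:37183210-37183485 and 7925 bp past the end of PIM1, had 25.8-fold and a −log10 q of 67.3 with 58 tags. No WT region overlapped it. Close to the PIM1 start both lists had a region, of 6.58-fold in the N642H line and 5.18-fold in the WT line. The N642H-only region with the highest fold, 27.3, lay at chrX:48937040-48937404 inside OTUD5, a deubiquitinase gene, and 18169 bp upstream of PIM2, which had 0 WT regions within 50 kb. PIM3 had a shared region of 7.08-fold in the N642H line and 7.32-fold in the WT line at its start and an N642H-only region of 6.57-fold further on. At PIM1 and PIM3 the promoter regions were thus shared and close in fold, and the distal ones were in the N642H list alone.

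BCL2L1 had 7 N642H-only regions and 0 WT regions within 20 kb. From the far end of the gene to its start, the folds of the 6 inside it were 17.1, 4.71, 13.2, 5.29, 3.73 and 8.16, and the seventh, 15482 bp upstream, had 4.94. That upstream region lay 155 bp from an end of another gene. The strongest, at chr20:31675740-31676150, had 63 tags and a −log10 q of 55.7. The 3 strongest lay 47982 bp, 15458 bp and 596 bp downstream of the start. BCL2, named in the study's title, had 0 regions within 50 kb in the N642H list and 0 in the WT list. MCL1, another survival gene, had 2 N642H-only regions of 5.64-fold and 4.53-fold, the weaker with its summit at 1 end of the gene.

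BCL6, a transcriptional repressor, had a shared region at its start with 18.7-fold and 52 tags in the N642H line and 4.14-fold and 11 tags in the WT line. It ranked 14 of 4541 in the N642H list and 2189 of 2267 in the WT list, the widest rank difference of any shared region in that direction. The summit of the WT region lay 102 bp upstream of the start and that of the N642H region 21 bp downstream, among the 4 STAT dimer sites shown above. MYC, a growth-promoting transcription factor, had a shared region inside the gene of 6.99-fold in the N642H line and 4.94-fold in the WT line, and an N642H-only region of 4.12-fold. CCND2, which encodes cyclin D2, had 1 N642H-only region of 8.39-fold and no WT region. CCND3, which encodes cyclin D3, had 8 regions in the N642H list and 5 in the WT list, of which 4 were shared, and its strongest, 39425 bp from the start, had 12.4-fold in the N642H line and 7.29-fold in the WT line.

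Genes of the receptor and kinase steps of the pathway had mostly weak N642H-only regions. IL7R, the interleukin 7 receptor chain, had 4 within 50 kb, of 5.40-fold at the start and 7.73-fold, 4.53-fold and 4.89-fold past the gene, and 0 in the WT list. JAK1, JAK2 and JAK3 had 1 each, of 5.89-fold, 5.67-fold and 5.99-fold, and 0 in the WT list. The JAK3 region lay 11673 bp upstream of JAK3 and 255 bp from an end of another gene. IL2RG, the common gamma chain, had an N642H-only region of 6.57-fold 4014 bp past the gene and 142 bp from an end of another gene. IL2RG also had a shared region 43012 bp from its start with 13.1-fold in the N642H line and 5.65-fold in the WT line. IL2RA and IL2RB, the other interleukin 2 receptor chains, had 0 regions within 20 kb in the N642H list and 0 in the WT list. Within 50 kb IL2RA had a shared region of 7.59-fold in the N642H line and 7.32-fold in the WT line, and IL2RB an N642H-only region of 6.66-fold. In the N642H list these IL2RA and IL2RB regions lay 177 bp and 234 bp from an end of another gene. STAT5A had a shared region near its end with 6.35-fold in the N642H line and 6.68-fold in the WT line.

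STAT5B itself had regions in the WT list alone. No N642H-line region lay in the gene or within 20 kb of it, while the WT list held 2 WT-only regions inside it, at chr17:42232024-42232130 with 7.94-fold and 22 tags and at chr17:42223480-42223556 with 6.21-fold and 17 tags. The first ranked 145 of 2267 in the WT list. Both lines carry an introduced STAT5B sequence, and whether its reads add to the counts in the gene was not tested.

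The remaining regions among the 10 strongest N642H-only ones were near CD180, a Toll-like receptor homologue of B cells, with 20.5-fold, JUND, an AP-1 transcription factor, with 17.6-fold, CDC42SE2 with 16.6-fold, KAZN with 14.9-fold, UTP3 with 10.7-fold and ZNF287 with 9.84-fold. All 6 were over 8 kb from the nearest gene end. Among the 10 strongest shared regions were ARID3B, a DNA-binding protein gene, with 33.3-fold in the N642H line and 12.4-fold in the WT line, and GRAPL with 15.9-fold in the N642H line and 12.3-fold in the WT line. DAD1 had 19.5-fold in the N642H line and 15.2-fold in the WT line, and RGS16, a regulator of G-protein signalling, had 23-fold in the N642H line and 11.8-fold in the WT line. The regions nearest GRAPL and DAD1 were the first and second strongest of the WT list. Besides SOCS1 and BCL6, another lay inside BAIAP2, and the rest were distant from any protein-coding gene: the nearest were RPS6KA1 at 45670 bp, SLC39A10 at 53202 bp and GSDMC at 537251 bp.

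The 10 strongest WT-only regions were weaker, and 1 of them was the first STAT5B region above. They included the starts of ZNF770 with 10.7-fold, CDIPT with 10.4-fold, DHX40 with 9.75-fold and C21orf91 with 8.90-fold, all with summits 85 to 329 bp upstream of the start. Others were inside MEGF6, with 10.4-fold, inside NPIPB11, with 9.17-fold, near EEF2KMT, with 9.75-fold, and in a gene-poor stretch whose nearest gene, OR4C12, was 1253944 bp away, with 10.8-fold. IL9R, a cytokine receptor gene, was the nearest gene of a region with 104 tags on a local background of 37.9 tags and a fold of only 2.70. NPIPB11 belongs to a family of near-identical copies, so reads there may be shared with other copies. Of the shared regions, the 5 that ranked higher in the WT list by the widest margin lay near CFAP20, ZCCHC3, KBTBD4, LOC124904958 and CBFA2T3, with folds of 3.58, 4.26, 3.58, 4.07 and 5.25 in the N642H line and 10.5, 9.89, 8.59, 10.3 and 10.1 in the WT line. In the other direction were BCL6 and, among others, LOC124906010, AAGAB and SALL3, the last 3 with 10.3-fold to 10.9-fold in the N642H line and 3.55-fold to 4.14-fold in the WT line. LOC124906010 and SALL3 were only the nearest genes, 301911 bp and 301322 bp from their regions, while the AAGAB summit was inside the gene.

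Across the genome, 5763 of 19974 protein-coding genes (28.9%) had a summit of the N642H list in the gene or within 20 kb, called linked here, and 3168 (15.9%) had one of the WT list. By class, N642H-only regions were linked to 21.4% of genes, shared regions to 10.5% and WT-only regions to 6.72%. The N642H list alone was linked to 3264 genes (16.3%), the WT list alone to 669 (3.35%) and both lists to 2499 (12.5%). At equal list lengths the N642H list alone was linked to 1482 genes. Most linked genes had few regions: 3428 had 1 N642H-only region, 693 had 2 and 153 had 3 or more. The genes with the most N642H-only regions were GSE1 with 10, a long gene that also had 6 shared ones, BCL2L1 and PRR7 with 7 each, and DBN1, GRK6, MIDN and MSI2 with 6 each. PRR7, DBN1 and GRK6 are neighbours on chromosome 5 and share regions.

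Of 30 STAT5 targets, 19 were linked to the N642H list (63.3%, against 28.9% of all genes) and 11 to the WT list (36.7%, against 15.9%). The 8 linked to the N642H list alone were CISH, SOCS2, PIM2, BCL2L1, MCL1, CCND2, ID1 and CDKN1A, and no gene of the list was linked to the WT list alone. Of the 11 genes linked to both lists, TNFRSF4, SPRED2, DUSP6, SPRY2 and PIM3 had the higher fold in the WT line at their strongest regions. TNFRSF4, which encodes the T-cell costimulator OX40, had 8.09-fold in the N642H line and 11.0-fold in the WT line. Of 16 cytokine feedback inhibitors, 8 (50%) were linked to the N642H list and 3 (18.8%), CBL, PTPN6 and SOCS3, to the WT list, and the WT share is near that of all genes. SOCS1 counts as linked to neither list in every gene list that holds it. Its shared region, 21126 bp away in the N642H list, lay just beyond 20 kb. Of 20 IL7R and JAK-STAT pathway genes, 12 (60%, against 28.9% of all genes) were linked to the N642H list and 6 (30%, against 15.9%) to the WT list. Both lists were linked to 4 of them, including STAT3 and STAT5A. STAT5B and IL9R were the 2 linked to the WT list alone.

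Of 20 BCL2 family genes, 10 (50%, against 28.9% of all genes) were linked to the N642H list and 4 (20%, against 15.9%) to the WT list. Besides BCL2L1 and MCL1, the genes linked to the N642H list alone were BBC3 with 7.40-fold, BAK1 with 6.64-fold, BCL2L2 with 6.22-fold, BCL2L12 with 6.40-fold and BCL2L11 with 4.27-fold. They include genes that protect from apoptosis (BCL2L1, MCL1, BCL2L2) and genes that promote it (BBC3, BAK1, BCL2L11). BMF, another pro-apoptotic member, had a shared region of 9.10-fold in the N642H line and 4.83-fold in the WT line.

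Lists less tied to STAT5 also stood above the share of all genes. Of 24 cell cycle genes, 13 (54.2%, against 28.9% of all genes) were linked to the N642H list and 8 (33.3%, against 15.9%) to the WT list. Of 22 PI3K-AKT and mTOR genes, 10 (45.5%) were linked to the N642H list and 10 (45.5%) to the WT list. PIK3CD, the leukocyte catalytic subunit of PI3K, had 3 N642H-only regions with a strongest fold of 15.5 and no WT region. Of 44 cytosolic ribosomal protein genes, 30 (68.2%) were linked to the N642H list and 15 (34.1%) to the WT list, and of 24 genes picked for strong general expression 17 (70.8%) were linked to the N642H list and 11 (45.8%) to the WT list. These shares stand beside 63.3% of the STAT5 targets in the N642H list and 36.7% in the WT list, so a high linked share was not particular to STAT5 targets. No expression was measured in these libraries.

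**Figure D5:**
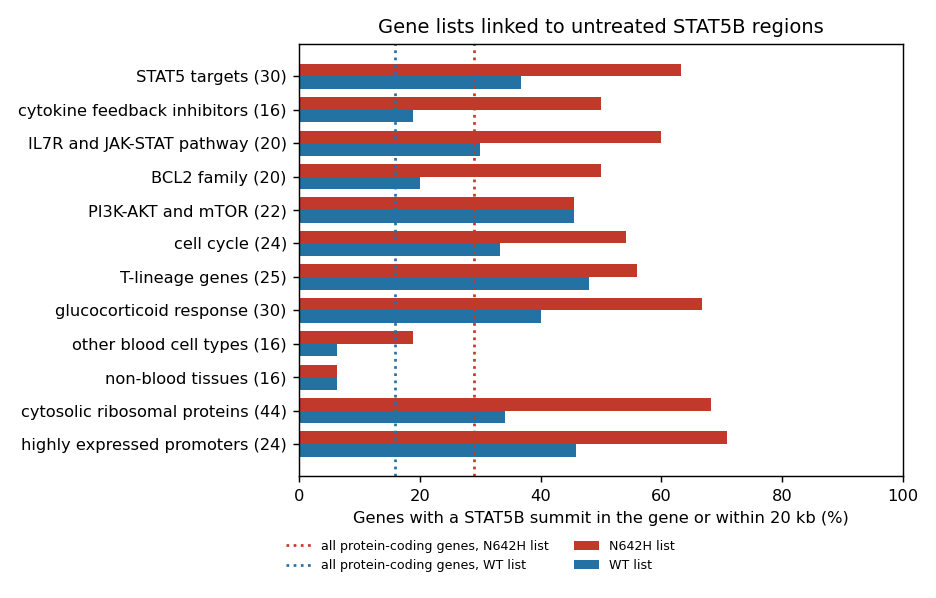
Share of the genes of each list linked to a STAT5B summit, in the gene or within 20 kb (%, horizontal axis), for the N642H list (upper, red bars) and the WT list (lower, blue bars), with the number of genes of each list in brackets. Dotted lines mark all 19974 protein-coding genes, 28.9% for the N642H list and 15.9% for the WT list; STAT5 targets, ribosomal protein genes and strongly expressed genes all lie above both lines.

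The cell type was looked at through the same links, since peak lists hold no expression. Of 25 T-lineage genes, 14 (56%, against 28.9% of all genes) were linked to the N642H list and 12 (48%, against 15.9%) to the WT list, 9 of them to both. NOTCH1 and NOTCH3, receptors that drive T-cell leukaemia, had shared regions of 10.1-fold and 14.4-fold in the N642H line and 7.32-fold and 10.4-fold in the WT line. LCK, a T-cell receptor kinase, had an N642H-only region of 8.68-fold, and CD5, a T-cell surface protein, a WT-only one of 7.32-fold. The LCK region lay 5740 bp past LCK and 178 bp from an end of another gene. CD2, CD3D, CD3G, CD4, ZAP70, GATA3, RAG2 and ETS1, also in the T-lineage list, were linked to neither list. TCF7, a T-cell transcription factor, had 3 shared regions within 50 kb. Of 16 marker genes of other blood cells 3 (18.8%) were linked to the N642H list and 1 (6.25%) to the WT list, and of 16 markers of other tissues 1 (6.25%) to the N642H list and 1 (6.25%) to the WT list, all below the shares of all genes.

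Of 30 glucocorticoid response genes in these untreated cells, 20 (66.7%, against 28.9% of all genes) were linked to the N642H list. The WT list was linked to 12 (40%, against 15.9%). The ribosomal protein genes had 68.2% in the N642H list and 34.1% in the WT list, so a high share was not particular to glucocorticoid response genes. FKBP5, a chaperone of the receptor, had shared regions with a strongest fold of 11.2 in the N642H line and 9.07 in the WT line. KLF9 with 10.1-fold, TXNIP with 9.18-fold, SGK1 with 6.96-fold and DUSP1 with 6.74-fold were linked to the N642H list alone. NR3C1, the receptor gene, had 1 N642H-only region of 6.10-fold and 1 WT-only region of 5.40-fold inside it, which did not overlap. Some genes, BCL6, IL7R and BCL2L11 among them, are in another list as well.

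The STAT5B regions were also set against the NR3C1 regions of prednisolone-treated N642H cells, a list of 2888. Of untreated N642H-line STAT5B regions 805 of 4541 (17.7%) lay at one, and of WT-line regions 442 of 2267 (19.5%), and 27.8% of the NR3C1 regions lay at an N642H-line STAT5B region and 432 of the 2888 at a WT-line one. By class the shares were 438 of 3189 N642H-only regions (13.7%, 12.6 to 15), 367 of 1352 shared regions (27.1%, 24.8 to 29.6) and 78 of 875 WT-only regions (8.91%, 7.11 to 11.0). They rose with strength: from the weakest to the strongest quintile, N642H-only regions had 4.49%, 7.03%, 9.24%, 20.0% and 46.4%, and shared regions of the N642H list 8.24%, 11.4%, 15.9%, 23.1% and 42.2%. In the strongest quintile N642H-only and shared regions were thus alike within their counting intervals, 41.3 to 51.5 and 37.9 to 46.5, while WT-only regions of the strongest WT quintile had 10 of 56 (17.9%, 8.91 to 30.4). Against the 994 NR3C1 regions of prednisolone-treated WT cells, the shares were lower and in the same class order: 2.79% of N642H-only, 10.7% of shared and 2.29% of WT-only regions. In the strongest quintile of the N642H list they were 8.07% of N642H-only (5.55 to 11.3) and 18.7% of shared regions (15.5 to 22.3). In that quintile N642H-only and shared regions were thus not alike, unlike against the NR3C1 list of N642H cells. Of the 10 strongest regions of a class, 9 N642H-only and 10 shared regions lay at an NR3C1 region of prednisolone-treated N642H cells. The N642H-only exception was SOCS3, and the 10 strongest WT-only regions were not looked up. No untreated STAT5B region of either line lay at an NR3C1 region of untreated cells, whose lists held 2 regions per line. Whether the lists of 1 line were made against the same input library is not given in the sources used here.

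Shared regions were also the ones most often found again in the prednisolone-treated STAT5B library of the same line. That list held 444 regions in the N642H line and 766 in the WT line. In the N642H line 94 N642H-only regions (2.95%) and 217 shared regions (16.1%) overlapped it, and in the WT line 405 shared regions (29.1%) and 45 WT-only regions (5.14%). More N642H-only regions, 144 (4.52%), overlapped the treated list of the WT line than that of their own line, so a region named N642H-only is one missing from the untreated WT list only. As a share of the shorter list, 70.5% of the treated N642H regions and 59.3% of the treated WT regions lay at an untreated STAT5B region of their own line. Of the 10 strongest regions of each class, 6 N642H-only, 9 shared and 0 WT-only regions were in it, including those at PIM1, OTUD5, BCL2L1 and BCL6.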

How the data were processed

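STAT5B ChIP-seq peak lists of untreated N642H-line and WT-line SUPT-1 cells were used, 1 library per line. Per the submitters' processing notes the tools were BWA, MACS2 and deepTools and the genome build was hg38, and their versions are not given in the sources used here. For each peak the authors deposited a span, a summit offset, a fold enrichment (a ratio of ChIP to local background), a score in whole numbers (10 times −log10 q), a −log10 p and a −log10 q of at least 2. No replicates were pooled, and input libraries were not used here on their own. Per the values, the pileup and local background were solved from the deposited fold, with a pseudocount of 1, and the deposited −log10 p under a Poisson law, with a largest residual of 3.5e-05, and the solution and the overlaps were tested on simulated data. Tag totals are not in these lists, so depth was described only by pileup and background.

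Overlap needed 1 bp, and shares have exact Clopper-Pearson 95% intervals. Gene spans (19974 protein-coding genes, 15812 with strand) and promoter windows came from RefSeq tables of GRCh38.p14. No test between lines was possible with 1 library each. The members and gene lists were chosen with earlier results of these data known. Genes were named as the nearest to the 10 strongest regions of each class, from 27 genes of the pathway, up to 6 members of each gene list, the 5 shared regions with the widest rank difference each way and the 5 genes with the most N642H-only regions. Genes outside this rule, such as those of promoter windows and further list members, were chosen after their values were seen. Not every gene named by this rule is reported. Exon and intron classes and sequences under distal peaks were not analysed here. Alternatives were another overlap rule, stricter −log10 q and fold limits, equal list lengths, every sequence of the files, other gene-end and gene-link distances, and starts of the promoter table, added after seeing the data. Python 3.11.15, numpy 2.4.6, pandas 2.3.3, scipy 1.17.1 and matplotlib 3.10.9 were used.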

Additional observations from a re-analysis of the deposited data

Results flagged for a closer look

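The comparisons use chromosomes 1 to 22 and X. Outside them, on unplaced, alternative and decoy sequences, the N642H list held 15 STAT5B regions with folds of 3.54 to 9.38, and the WT list held 11 with folds of 4.27 to 8.06. Of these, 8 in the N642H list and 8 in the WT list overlapped a region of the other line. They drew attention because they are a signal in data that no comparison here uses.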

How the results depend on the processing

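Of 38 values computed under alternatives, 27 stayed within the interval of the reported share or within 1.5 times the reported count. With equal list lengths, both cut to the 2267 regions of highest −log10 q, the shared share became 42.2% of the N642H list and 43.8% of the WT list, the gene-end share 47.8% of N642H-only and 56.8% of WT-only regions, and the genes linked to the N642H list alone 1482 instead of 3264. With a −log10 q of at least 5 in both lists, 22.9% of N642H-line regions were shared, and with a fold of at least 5 it was 28.1% of N642H-line and 53.8% of WT-line regions. With gene ends taken within 500 bp, 46.9% of N642H-only, 55.2% of shared and 45.1% of WT-only regions lay at one. The shorter list or distance is part of how these alternatives are made, and other causes were not tested. Requiring summits within 250 bp and using every sequence changed no value beyond these limits. No paired analysis was possible because each line had 1 library and no test was run. Depth limits the weak end: the lowest pileup was 8 tags in the N642H list and 7 in the WT list, and a region missing from a list is not shown to be unbound.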

Other observations

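Small nuclear RNA genes, among them those for RNAs of the spliceosome and for 7SK, were looked at after their values were seen. Of 154 in the RefSeq table, 42 (27.3%, 20.4 to 35.0) had a summit of the N642H list within 500 bp, 40 (26.0%, 19.2 to 33.7) one of the WT list and 38 (24.7%) one of both. Protein-coding genes were counted by the same rule, with a summit anywhere in the gene or within 500 bp of it. Their shares were 17.8% in the N642H list, 9.24% in the WT list and 6.68% in both. The rule takes in the whole gene, so shares of gene types that differ in length are not directly comparable. Of the 42 N642H-list regions at small nuclear RNA genes 37 were shared. RNU1-1 had 15.5-fold in the N642H line and 11.4-fold in the WT line, RNU11 14.0-fold in the N642H line and 5.87-fold in the WT line, and RNU5F-1 8.30-fold in the N642H line and 10.3-fold in the WT line. Many of these genes are near-identical copies, so reads may be shared among them and the values of single copies are uncertain.

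Of 443 tRNA genes, 75 (16.9%) had a summit of the N642H list within 500 bp, 48 (10.8%) one of the WT list and 34 (7.67%) one of both. Of 1911 miRNA genes, 30 (1.57%) had one of the N642H list, 17 (0.890%) one of the WT list and 11 (0.576%) one of both. Chosen after their values were seen, MIR23A had an N642H-only region of 9.20-fold, and MIR4674, which lies next to the NOTCH1 start, the shared region given for that gene.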
